A study of Mus musculus with 6 samples.

Results

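Aggrecan, versican, neurocan and brevican are the lecticans, the family of large chondroitin sulfate proteoglycans that bind the polysaccharide hyaluronan. They were examined in the nasomaxillary complex of mouse embryos together with 3 link protein genes and 3 further genes of the same matrix. The set was chosen by gene symbol, and all 10 symbols (Acan, Vcan, Ncan, Bcan, Hapln1, Hapln3, Hapln4, Cd44, Prg4 and Chad) were present among the 24346 in each library. The 3 mutant libraries came from E17.5 embryos (late gestation) of the genotype Wnt1-Cre:Pth1r f/f, in which Cre recombinase under the Wnt1 promoter acts in neural crest cells on floxed copies of the parathyroid hormone receptor gene. The 3 control libraries came from E17.5 embryos of the genotype Pth1r f/f, which carry the floxed gene and no Cre, and no embryo was treated. An effect of the Cre transgene therefore cannot be told apart from loss of the receptor, and tissue that does not derive from the neural crest keeps the receptor. The labels do not say whether each library is 1 embryo or a pool, so p-values reflect the spread among the libraries as sequenced, which may in part be technical. Replicate numbers used below are not from the labels and follow the order in which the series lists the libraries.

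In cartilage, aggrecan monomers bind along a hyaluronan chain, and a link protein clamps each of them in place. The sulfated chains of these aggregates draw in water, which lets cartilage resist compression. Versican fills a similar place in the loose matrix of mesenchyme, vessel walls and developing tissue, while neurocan and brevican are mainly known from the nervous system. The cell surface receptor CD44 anchors hyaluronan to cells, lubricin coats joint surfaces, and chondroadherin is a small leucine-rich cartilage protein that binds collagen and integrins.

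Aggrecan RNA fell to 40.0% of its control mean in mutant libraries, and it was the 1 gene of the set that passed the test. The cartilage link protein gene Hapln1 stood at 48.4% of its control mean and versican at 134% of its control mean, with mutant and control values apart for both, but neither passed. Values are FPKM, fragments counted per kilobase of transcript and per unit of sequencing depth, so levels of different genes can be set side by side. Changes are differences of log2(FPKM + 1), mutant minus control, tested with limma. The test covered the 14766 genes that averaged 1 FPKM or more, with p-values adjusted by the Benjamini-Hochberg method and a threshold of 0.05. Of the 10 genes, 8 passed that filter, and Bcan and Hapln4 did not. Among the 8, 1 was called lower and 0 higher, where 0.203% of all tested genes were called lower and 0.061% higher. At an unadjusted p under 0.05 there were 3 of the 8, against 11.3% of all tested genes. The groups did not overlap for Acan and Hapln1, lower in mutant as for 9.16% of all tested genes, and for Vcan, higher in mutant as for 7.85%. The median log2 change of the 8 genes was -0.04, beside -0.0020 over all tested genes.

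**Figure D1:**
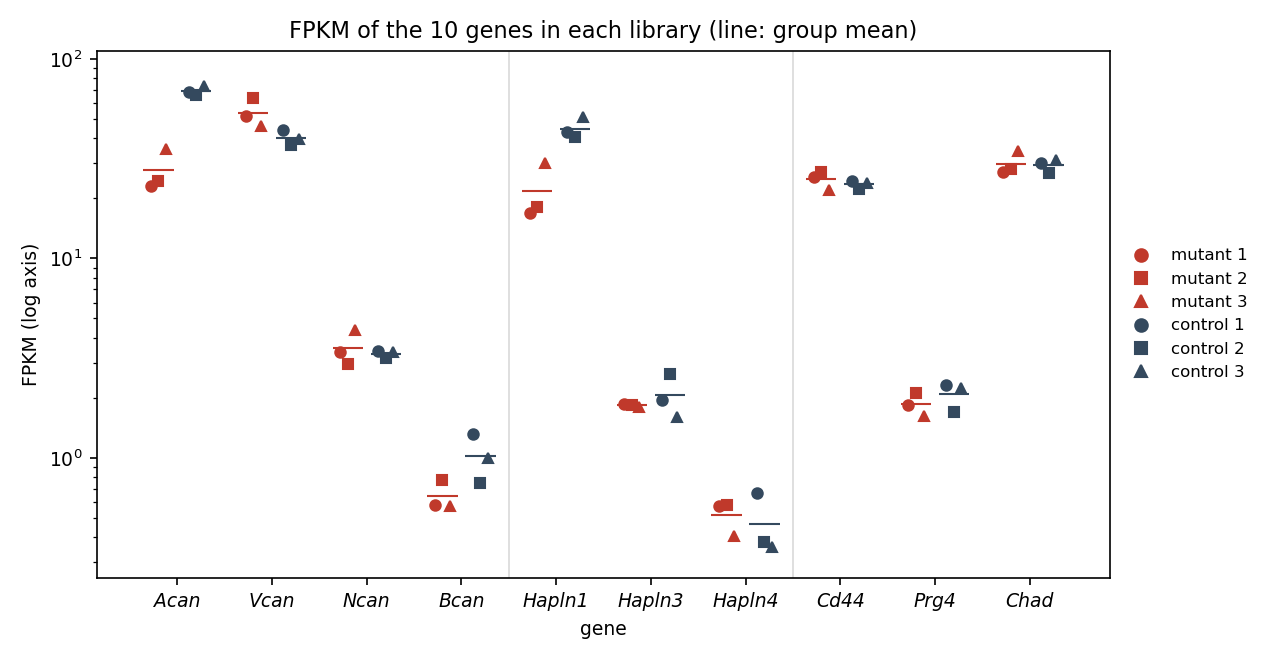
FPKM on a log axis for the 10 genes, with mutant libraries (red) left of control libraries (dark blue), 1 symbol per replicate and a line at the group mean. Acan and Hapln1 lie lower and Vcan higher in all 3 mutant libraries, while the groups of the other genes overlap.

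Libraries were similar in total FPKM (514693 to 546322), and their relative depth, read from the spacing of low values, ran from 0.671 in mutant replicate 3 to 1.11 in control replicate 2. By Xist and Y-linked genes the 3 controls and mutant replicate 1 were female, and the other 2 mutant libraries were male. The mutant libraries therefore do not all come from the same embryo. Pth1r, the floxed gene, measured 77.3, 78.4 and 69.7 FPKM in mutant replicates 1 to 3, against 75.2, 55.2 and 73.5 FPKM in control replicates 1 to 3. A value for the whole gene in mixed tissue does not check the genotype labels. Markers of cartilage, joint surface, nerve, glia, leukocytes, epithelium, muscle, bone, endothelium and fibrous tissue were listed, and none of them was at 0 in all libraries.

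Acan encodes aggrecan, the main proteoglycan of cartilage, and lies on chromosome 7 (79053483 to 79115099, plus strand, GRCm38). It measured 23.1, 24.4 and 35.4 FPKM in mutant replicates 1 to 3, against 68.4, 65.7 and 73.1 FPKM in control replicates 1 to 3. The highest mutant value was thus well under the lowest control value, and mutant replicate 3 stood above the other mutant libraries. The means were 27.6 ± 6.79 FPKM in mutant and 69.1 ± 3.75 FPKM in control (SD, n = 3 each). The log2 change was -1.31 ± 0.15 (SE), with a 95% interval from -1.66 to -0.97, and passed the test (limma adjusted p = 0.0266). The call was lost when any 1 library other than mutant replicate 3 was left out (adjusted p 0.0710 to 0.123), with no filter (0.0618) and without the trend (0.0562), and the change stayed between -1.54 and -1.08 over all 18 alternatives. With sex as a covariate, which sets the 1 female mutant library against the female controls, the change was -1.54 (adjusted p = 0.119), and with muscle markers as a covariate it was -1.08 (adjusted p = 0.240).

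The promoters of Acan and of Chad, the cartilage gene of the set whose levels were closest between the groups, are shown for comparison. Each is the 250 bases before the RefSeq start site (GRCm38.p6), and in both genes this window holds 0 annotated exons. In the GENCODE annotation Chad starts directly after its window, but Acan starts at 79053483, beyond the window's end at 79053225. The bases just before that GENCODE start of Acan were not searched. The Chad window, like Chad itself, lies inside the span of the gene Acsf2 on the other strand. Capitals mark matches on either strand to GGGCGG, the GC box, or to TATAAA, the TATA box.
Acan promoter, chr7:79052976-79053225, plus strand: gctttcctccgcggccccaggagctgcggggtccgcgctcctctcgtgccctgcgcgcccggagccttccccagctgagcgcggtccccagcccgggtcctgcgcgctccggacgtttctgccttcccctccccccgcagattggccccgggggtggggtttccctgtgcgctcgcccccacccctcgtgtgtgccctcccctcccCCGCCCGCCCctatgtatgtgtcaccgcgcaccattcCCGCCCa
Chad promoter, chr11:94564797-94565046, plus strand: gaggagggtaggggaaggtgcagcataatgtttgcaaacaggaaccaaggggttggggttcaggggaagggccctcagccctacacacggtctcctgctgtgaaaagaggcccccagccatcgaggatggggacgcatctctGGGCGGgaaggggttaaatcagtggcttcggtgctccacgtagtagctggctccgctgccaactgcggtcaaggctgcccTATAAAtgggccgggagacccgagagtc
The Acan window held 3 matches to GGGCGG, all as its reverse complement and the first pair overlapping each other, and none to TATAAA. The Chad window held 1 match to GGGCGG and 1 to TATAAA, whose match starts 28 bases before the start site. Over 32851 promoter windows of the same length, 32.7% held GGGCGG and 12.4% held TATAAA. Neither window held AACAAT, a core sequence bound by SOX proteins, on either strand, and 9.42% of all windows did. GC content was 74.4% for Acan and 60.4% for Chad, beside a median of 52.4% (quartiles 45.2% and 61.2%). These matches describe letters only. RefSeq promoter windows were found for 8 of the 10 genes, the exceptions being Prg4 and Hapln4.

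Hapln1, the link protein of cartilage, lies on chromosome 13 (89539796 to 89611652, plus strand). It measured 16.9, 18.04 and 30.0 FPKM in mutant replicates 1 to 3, against 42.9, 40.4 and 51.0 FPKM in control replicates 1 to 3. As for Acan, the groups were apart and mutant replicate 3 lay nearest to the controls. The log2 change was -1.05 ± 0.20 (SE), with a 95% interval from -1.53 to -0.57, and limma gave an adjusted p of 0.140. It did not pass over all libraries, and it passed in 1 of 18 alternatives, when mutant replicate 3 was left out (log2 change -1.30, adjusted p = 0.00699). Without that library 2 genes of the set were called, Acan and Hapln1.

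Mutant replicate 3 stood apart in the cartilage markers in the same way. Over 14 chondrocyte markers that exclude the genes of this set (collagens II, IX and XI, matrilins and others), the mean log2 value relative to the control mean was -1.67, -1.74 and -1.12 in mutant replicates 1 to 3, against 0.012, -0.10 and 0.092 in control replicates 1 to 3. Their summed level was 592 to 979 FPKM in mutant and 1838 to 2241 FPKM in control. Of the 14 markers 8 were called lower and 0 higher, beside 0.203% and 0.061% of all tested genes, and their median log2 change was -1.53. The markers were listed with earlier results of these data known, so their count is not independent support. In whole tissue, fewer chondrocytes and less of an RNA per chondrocyte cannot be told apart.

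**Figure D2:**
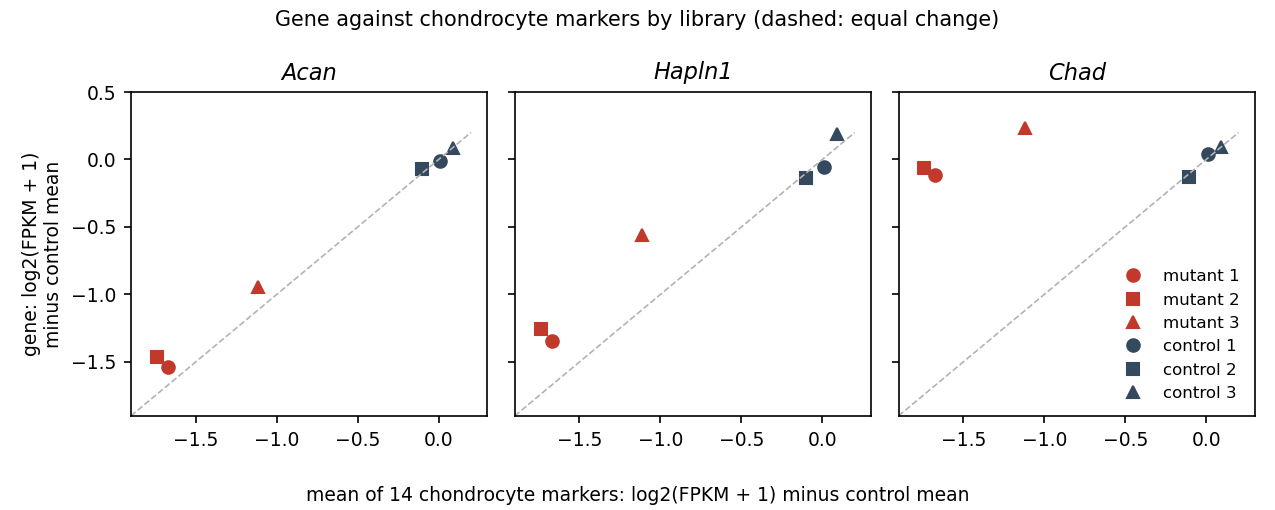
Log2(FPKM + 1) minus the control mean of Acan, Hapln1 and Chad (vertical axes) against the mean of 14 chondrocyte markers (horizontal axis), 1 point per library, mutant in red and control in dark blue, with a dashed line where both change equally. Acan and Hapln1 are low in the 3 mutant libraries with mutant replicate 3 nearest to the controls, and Chad stays between -0.13 and 0.23.

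Set against Col2a1, the main collagen gene of cartilage, Acan and Hapln1 stood at higher ratios in mutant libraries. The direction depends on the gene they are set against. Col2a1 had a log2 change of -1.99, and the 14 chondrocyte markers ranged from -2.68 (Matn1) to -0.49 (Sox9). Markers such as Col11a1 (-0.81) fell less than Acan and Hapln1. Acan stood at 0.146, 0.187 and 0.137 times the FPKM of Col2a1 in mutant replicates 1 to 3, against 0.0957, 0.108 and 0.0933 times in control replicates 1 to 3. For Hapln1 the ratios to Col2a1 were 0.107, 0.138 and 0.116 in mutant replicates 1 to 3, against 0.0601, 0.0664 and 0.0652 in control replicates 1 to 3. Every mutant ratio was above every control ratio. On the log2(FPKM + 1) scale the difference to Col2a1 was 0.68 higher in mutant than in control for Acan and 0.94 higher for Hapln1. In both cases the two-sided exact permutation p was 0.1, the smallest that 3 against 3 libraries allow, or 0.114 after adjustment over the 8 gene pairs compared.

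The ratio of Acan to Hapln1 also differed between the groups, but by a test that could not pass with 3 against 3 libraries. How often the ratios of other gene pairs were apart was not counted. Acan was at 1.36, 1.35 and 1.18 times Hapln1 FPKM in mutant replicates 1 to 3, against 1.59, 1.63 and 1.43 times in control replicates 1 to 3. The ratio was lower in every mutant library than in any control, by a mean difference of -0.26 on the log2(FPKM + 1) scale (exact permutation p = 0.1, adjusted p = 0.114).

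Vcan encodes versican and lies on the same chromosome as Hapln1 (89655312 to 89742509, minus strand). It measured 51.8, 63.5 and 46.3 FPKM in mutant replicates 1 to 3, against 44.3, 36.9 and 39.6 FPKM in control replicates 1 to 3. All mutant values were above all control values, although mutant replicate 3 exceeded control replicate 1 only narrowly. The log2 change was 0.40 ± 0.12 (SE), with a 95% interval from 0.12 to 0.68, and did not pass (limma adjusted p = 0.298). It passed in 0 of 18 alternatives. The 6 skeletal muscle markers summed to 406, 775 and 300 FPKM in mutant replicates 1 to 3, against 327, 202 and 287 FPKM in control replicates 1 to 3. The mutant libraries held the same order for Vcan and for muscle. By summed FPKM the endothelial, glial and fibrous tissue markers held that order too, and the other tissue markers did not. With the muscle markers as a covariate the Vcan change was 0.07, and no other tissue was used as a covariate. The 6 epithelial markers summed to 1667 to 1772 FPKM in mutant and 594 to 1464 FPKM in control. The part of these tissues in the Vcan values was not tested.

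**Figure D3:**
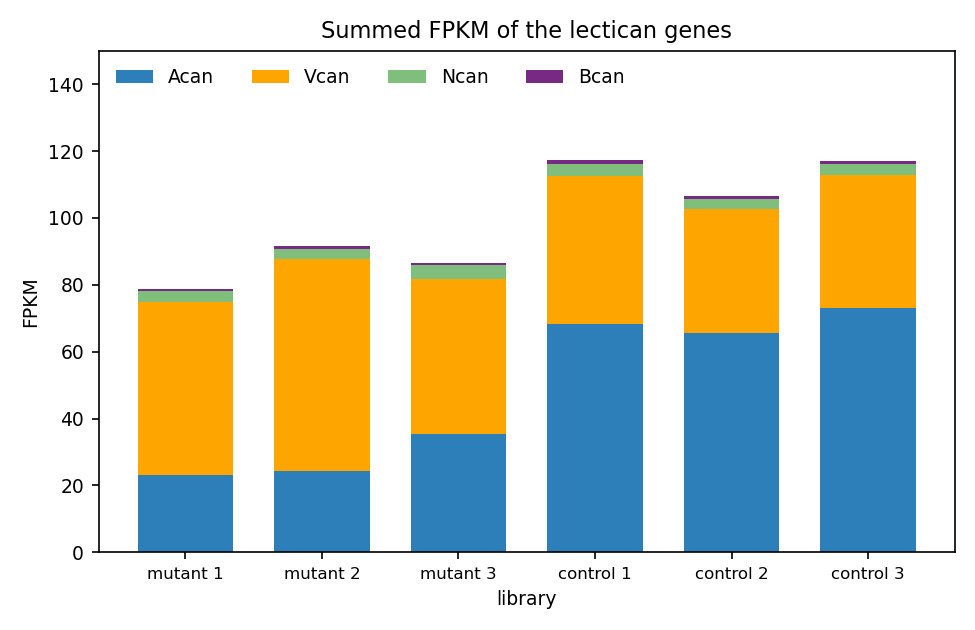
Bars give the FPKM of Acan, Vcan, Ncan and Bcan stacked by library, with mutant libraries left of control libraries. Acan is the larger part in the 3 control libraries and Vcan in the 3 mutant libraries.

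Together these values turned round the order of the main lecticans. The 4 genes summed to 78.8, 91.6 and 86.6 FPKM in mutant replicates 1 to 3, against 117, 106 and 117 FPKM in control replicates 1 to 3. Acan made up 32.3 ± 7.60% of that sum in mutant and 60.8 ± 2.22% in control (SD, n = 3 each). Vcan made up 62.8 ± 8.33% in mutant and 35.4 ± 2.06% in control. Both shares were apart between the groups, with an exact permutation p of 0.1, the smallest possible, and 0.133 after adjustment over the 4 shares. With Acan lower and Vcan higher in every mutant library, these shares restate the changes of the single genes. The Ncan share was also apart, at 4.18 ± 0.903% in mutant and 2.93 ± 0.0350% in control, although Ncan levels overlapped. The sum that this share divides by was lower in every mutant library than in any control. The ratio of Acan to Vcan was 0.446, 0.384 and 0.766 in mutant replicates 1 to 3, against 1.55, 1.78 and 1.85 in control replicates 1 to 3, so Vcan was the higher of the pair in every mutant library and the lower in every control.

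Ncan and Bcan, the lecticans of the nervous system, were minor components. Ncan measured 3.37, 2.96 and 4.36 FPKM in mutant replicates 1 to 3, against 3.42, 3.16 and 3.41 FPKM in control replicates 1 to 3. The groups overlapped, and the log2 change was 0.06 (95% interval -0.22 to 0.35, limma adjusted p = 0.891). Bcan measured 0.577, 0.775 and 0.573 FPKM in mutant replicates 1 to 3, against 1.31, 0.748 and 0.999 FPKM in control replicates 1 to 3. Mutant replicate 2 exceeded control replicate 2, so the groups overlapped. Fitted with no filter, the log2 change of Bcan was -0.29 (95% interval -0.57 to -0.0084, limma adjusted p = 0.495). The neuron markers (Tubb3, Stmn2 and others) summed to 202 to 285 FPKM in mutant and 249 to 326 FPKM in control, and glial markers to 129 to 167 FPKM in mutant and 125 to 180 FPKM in control.

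The other link protein genes were at low levels. Hapln3, known from a wider range of tissues, measured 1.86, 1.85 and 1.80 FPKM in mutant replicates 1 to 3, against 1.96, 2.65 and 1.59 FPKM in control replicates 1 to 3. The mutant values lay inside the control range, and the log2 change was -0.10 (95% interval -0.42 to 0.23, limma adjusted p = 0.842). Hapln4, a link protein of the brain, measured 0.571, 0.577 and 0.404 FPKM in mutant replicates 1 to 3, against 0.667, 0.376 and 0.356 FPKM in control replicates 1 to 3. Those groups overlapped too, and with no filter its log2 change was 0.05 (95% interval -0.19 to 0.30). Hapln2, the remaining gene of the family and also known from the brain, reached 0.127 FPKM at most and was listed at 0 in mutant replicate 3. Hapln1 therefore supplied 89.2 ± 3.41% of link protein FPKM in mutant and 94.4 ± 1.69% in control (SD, n = 3 each).

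Each lectican gene of the mouse lies beside a link protein gene, with 0 protein-coding genes between them in the GENCODE annotation of GRCm38. Acan and Hapln3 on chromosome 7 point towards each other and end 2 bases apart. Vcan and Hapln1 on chromosome 13 point towards each other across 43.7 kb, Ncan and Hapln4 on chromosome 8 point towards each other across 2.22 kb, and Bcan and Hapln2 on chromosome 3 share a strand and lie 21.5 kb apart. For Acan and Hapln3, and likewise for Vcan and Hapln1, the ratios differed between the groups, although neither difference passed. The Acan to Hapln3 ratio was 12.4, 13.2 and 19.7 in mutant replicates 1 to 3, against 35.0, 24.8 and 45.9 in control replicates 1 to 3. The Vcan to Hapln1 ratio was 3.06, 3.52 and 1.54 in mutant replicates 1 to 3, against 1.03, 0.912 and 0.776 in control replicates 1 to 3. In both pairs the groups were apart (exact permutation p = 0.1, adjusted p = 0.114). On the log2(FPKM + 1) scale the mean differences were -1.22 for Acan minus Hapln3 and 1.46 for Vcan minus Hapln1. With Vcan higher and Hapln1 lower in every mutant library, the ratio of that pair had to be apart. Hapln3 changed by -0.10, so Acan minus Hapln3 mostly restates the Acan change of -1.31. Ncan minus Hapln4 differed by 0.011 (exact permutation p = 1), with groups that overlapped. Bcan minus Hapln2 differed by -0.30 (exact permutation p = 0.1), at levels where Hapln2 was close to 0. That difference was -0.55 with a pseudocount of 0.1 (exact permutation p = 0.4) and -0.17 without control replicate 1.

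**Figure D4:**
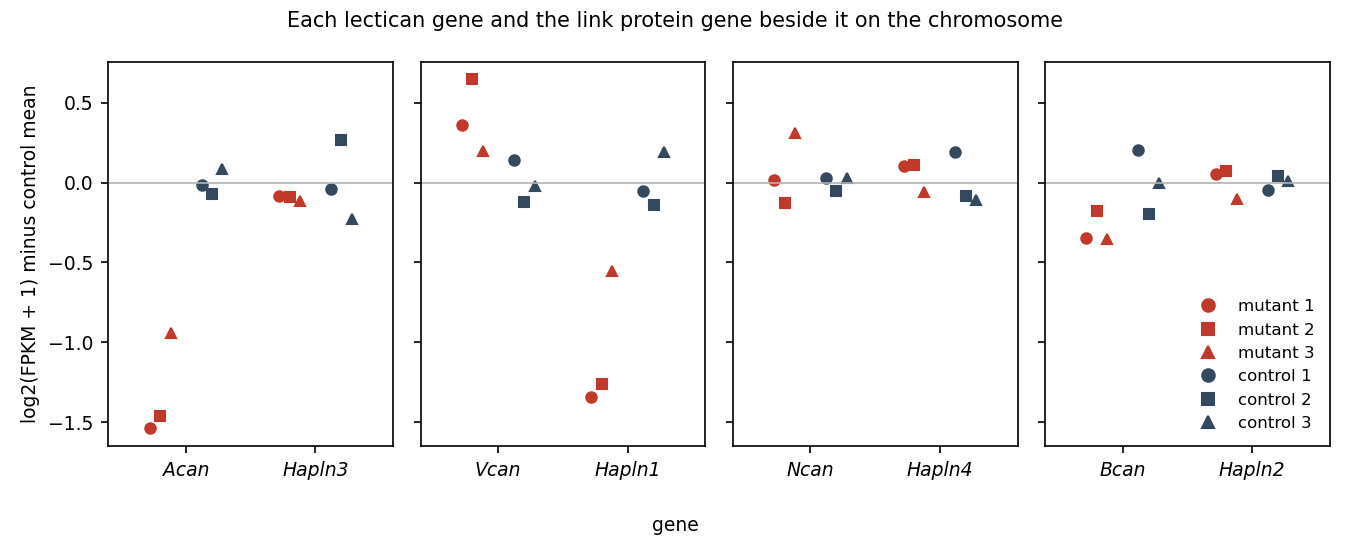
Log2(FPKM + 1) minus the control mean for each lectican gene and its neighbouring link protein gene, 1 point per library, mutant (red) left of control (dark blue) within each gene. Acan falls while Hapln3 stays between -0.23 and 0.26, and Vcan is above 0 where Hapln1 is far below it in the mutant libraries.

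Neither Cd44 nor Prg4 passed the test. Cd44, the hyaluronan receptor, measured 25.7, 27.2 and 22.0 FPKM in mutant replicates 1 to 3, against 24.4, 22.2 and 24.0 FPKM in control replicates 1 to 3. The groups overlapped fully, and the log2 change was 0.08 (95% interval -0.12 to 0.28, limma adjusted p = 0.788). Prg4, which encodes lubricin, measured 1.84, 2.12 and 1.62 FPKM in mutant replicates 1 to 3, against 2.31, 1.70 and 2.23 FPKM in control replicates 1 to 3. Its log2 change was -0.10 (95% interval -0.39 to 0.19, adjusted p = 0.811), and 4.77% of its exonic bases overlap the gene Tpr on the other strand. Of the joint surface markers, Gdf5 measured 2.25 to 2.91 FPKM in mutant and 2.30 to 2.95 FPKM in control, and Erg measured 14.3 to 16.9 FPKM in mutant and 13.3 to 14.96 FPKM in control. Cilp measured 1.95 to 2.44 FPKM in mutant and 1.04 to 2.06 FPKM in control. Creb5, under the filter, measured 0.707 to 1.29 FPKM in mutant and 0.674 to 0.808 FPKM in control. Of the 4 markers tested 0 were called. The list of 5 summed to 241 to 255 FPKM in mutant and 224 to 246 FPKM in control, most of it from Tppp3 with 219 to 234 FPKM in mutant and 205 to 226 FPKM in control.

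Chad, the gene of chondroadherin, was the cartilage gene of the set without the difference between the groups seen for Acan. It lies on chromosome 11 (94565047 to 94569127, plus strand), between neighbouring exons of Acsf2 on the other strand, with 0 Acsf2 exons over it. It measured 27.0, 28.0 and 34.6 FPKM in mutant replicates 1 to 3, against 30.2, 26.7 and 31.3 FPKM in control replicates 1 to 3. The groups overlapped, with mutant replicate 3 the highest of all 6 libraries. Within each group the libraries held the same order for Chad as for Acan. The log2 change was 0.02, and its 95% interval from -0.23 to 0.26 does not reach the size of the Acan change. Chad was also near Acan in level in mutant libraries, with means of 29.9 ± 4.14 FPKM for Chad and 27.6 ± 6.79 FPKM for Acan.

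The order of levels differed between the groups accordingly. In mutant libraries Vcan stood first at a mean of 53.8 FPKM, followed by Chad, Acan, Cd44 and Hapln1, whose ranges over libraries overlapped from one to the next. In control libraries Acan stood first, followed by Hapln1 and Vcan, whose ranges overlapped each other, and then by Chad and Cd44, whose ranges did not. In both groups Ncan, Prg4, Hapln3, Bcan and Hapln4 took the remaining places in that order, and Prg4 and Hapln3 could not be separated.

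Other genes of hyaluronan metabolism and lectican turnover showed no call. Of 22 hyaluronan genes 14 were tested and 0 were called by limma in either direction, with 3 at an unadjusted p under 0.05 and a median log2 change of 0.05. Over all tested genes 0.264% were called and 11.3% had an unadjusted p under 0.05. Groups did not overlap for 1 of the 14, higher in mutant, and for 2, lower in mutant, beside 7.85% and 9.16% of all tested genes. The synthase gene Has3 and Hmmr, which encodes a hyaluronan-binding protein also active in mitosis, had the smallest p in the list. Hmmr measured 6.74 ± 0.812 FPKM in mutant and 8.56 ± 0.0589 FPKM in control (log2 change -0.31 ± 0.086 SE, adjusted p = 0.276). Has3 measured 2.57 ± 0.110 FPKM in mutant and 1.99 ± 0.220 FPKM in control (log2 change 0.26 ± 0.097 SE, adjusted p = 0.388). The most abundant of the list were the hyaluronidase gene Hyal2, at 26.2 FPKM in mutant and 25.6 FPKM in control, and Tmem2, a cell surface protein gene involved in hyaluronan breakdown, with log2 changes of 0.03 and -0.13.

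Has1, another synthase gene, was under the filter and was singled out after its values were seen. It measured 0.0731, 0.0827 and 0.0556 FPKM in mutant replicates 1 to 3, against 0.336, 0.303 and 0.398 FPKM in control replicates 1 to 3. Every mutant value was far under every control value, at levels that rest on few fragments. With no filter the log2(FPKM + 1) change was -0.33 ± 0.051 (SE), which did not pass (limma adjusted p = 0.119). Has2, the synthase gene with the highest level and also outside the naming rule, had a change of 0.0033 (95% interval -0.31 to 0.32).

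Of 7 ADAMTS protease genes whose products cleave lecticans, 7 were tested and 0 called, with 2 at an unadjusted p under 0.05 and a median log2 change of 0.18. Over all tested genes 0.264% were called and 11.3% had an unadjusted p under 0.05. Groups did not overlap for 3 of the 7 (Adamts1, Adamts5 and Adamts20), all higher in mutant, as for 7.85% of all tested genes. Adamts20 measured 3.07 ± 0.225 FPKM in mutant and 2.199 ± 0.0933 FPKM in control (log2 change 0.35 ± 0.088 SE, adjusted p = 0.247). Adamts4, an aggrecanase gene, measured 7.27 ± 1.01 FPKM in mutant and 9.17 ± 1.11 FPKM in control (adjusted p = 0.408). The aggrecanase gene Adamts5, outside the naming rule, had a log2 change of 0.24 (adjusted p = 0.469), and the most abundant, Adamts1 and Adamts9, had changes of 0.18 and -0.10. Among 5 partners of the lectican lectin domain 4 were tested and 0 were called, also with 0 at an unadjusted p under 0.05. Those with the smallest p were Fbn1 and Fbln2, for fibrillin and fibulin, with changes of 0.18 and 0.11, and the other abundant one, Tnc, for tenascin, changed by 0.06. None of these lists had a called gene in any of the 18 alternatives.

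**Figure D5:**
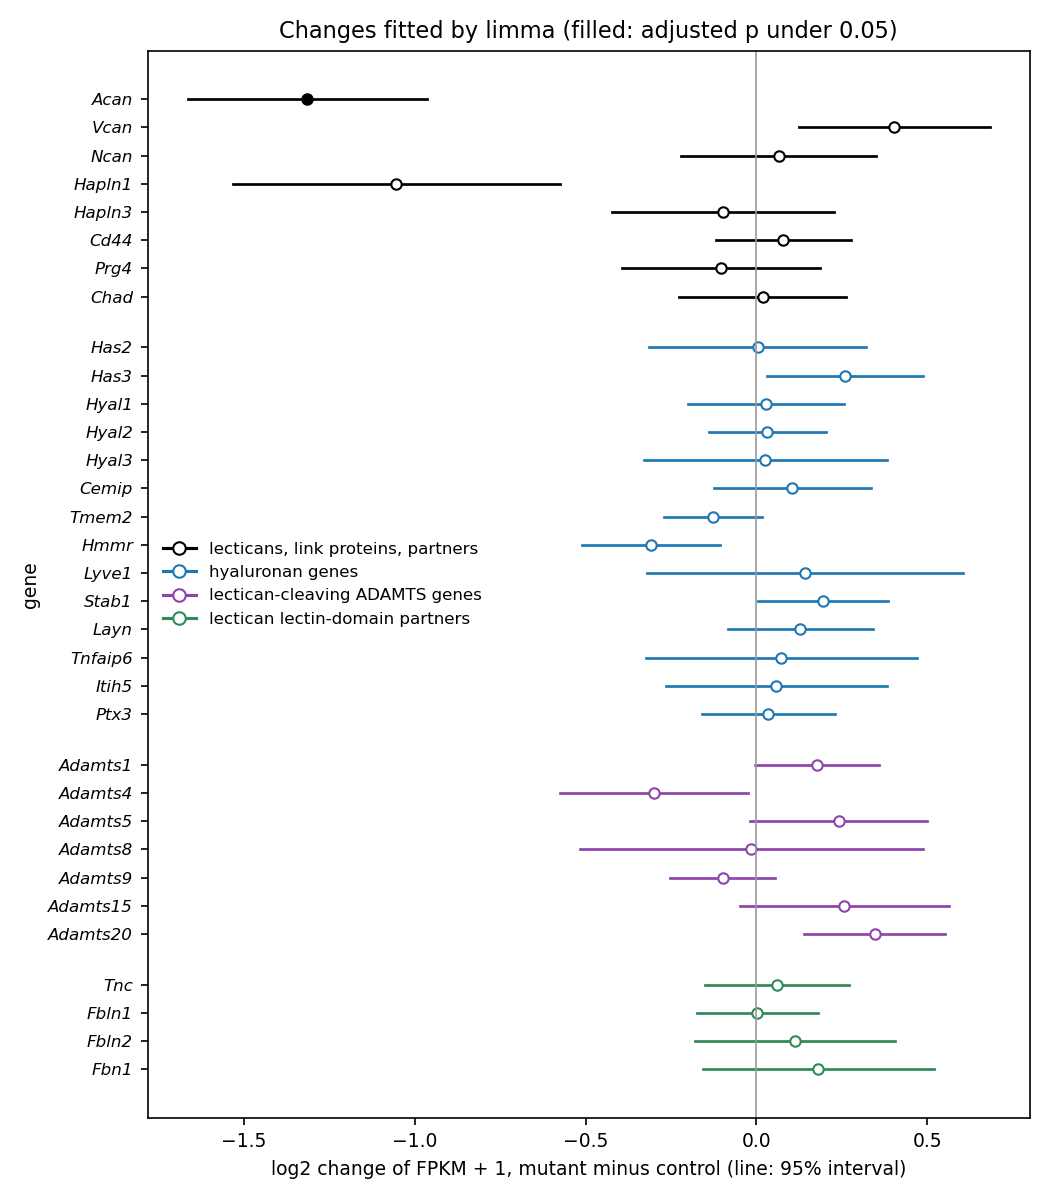
Log2 change of FPKM + 1, mutant minus control, with its 95% interval, for the 8 tested genes of the set (black), 14 hyaluronan genes (blue), 7 ADAMTS genes (purple) and 4 lectin-domain partners (green). Acan is the one filled point (adjusted p under 0.05), with Hapln1 the next lowest and Vcan the highest.

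Likeness to Acan and Hapln1 was measured over the 6 libraries as the distance between library values of log2(FPKM + 1) after subtracting each gene's control mean. This measure takes in the difference between the groups, so the genes it finds share the low mutant values by construction. The nearest of 14765 tested genes to Acan were Col9a2, Sfrp4, Matn3, Hapln1 and Ncmap, at distances of 0.286, 0.308, 0.381, 0.496 and 0.499. Col9a2 encodes a chain of cartilage collagen IX, Sfrp4 a secreted Wnt antagonist, Matn3 a matrilin of cartilage and Ncmap a protein of myelin. The nearest to Hapln1 were Cytl1, Col9a2, Acan, Col11a2 and Sfrp4. Cytl1, which encodes a secreted protein made by chondrocytes, measured 30.0, 32.5 and 41.9 FPKM in mutant replicates 1 to 3, against 67.7, 57.4 and 89.4 FPKM in control replicates 1 to 3. Acan was thus the third nearest gene to Hapln1 and Hapln1 the fourth nearest to Acan.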

How the data were processed

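RNA of 6 libraries, 3 mutant and 3 control by the genotype label, was analysed. Per the labels' protocols, TRIzol was used for extraction and a stranded kit for the libraries. The submitters' processing notes name Cuffdiff 2.2.1, SAMtools 0.1.18, TopHat2 2.1.1 and Bowtie2 2.2.8, and mm10 as the build. Per the file headers, the authors deposited 1 FPKM value for each gene symbol. Annotation, filters, strand setting and any scaling between libraries were not given in the sources used here.

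Values were used as log2(FPKM + 1), and genes that averaged under 1 FPKM were set aside. Groups were compared with limma (version 3.58.1, R 4.3.3), using eBayes with a mean trend and two-sided tests without covariates. Adjustment was by Benjamini-Hochberg over 14766 genes. The fit was tested on simulated data. Shares and ratios were compared by two-sided exact permutation tests over libraries (scipy 1.17.1). Gene positions are from GENCODE M21 and promoters from RefSeq, both on GRCm38, the assembly of mm10. Relative depth is the commonest ratio, over genes with values under 0.15 FPKM, of the value in control replicate 1 to that in the library. Absolute depth was not estimated.

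The genes and lists were chosen with earlier results of these data known. The rule for named genes takes the 10 genes of the set, Hapln2, Col2a1 and Pth1r. From each other list it takes called genes, or the 2 of smallest p, and the 2 most abundant, and it adds the 5 genes nearest to Acan and to Hapln1. Alternatives were other pseudocounts, filters, scalings and limma settings, covariates and leaving out each library.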

Additional observations from a re-analysis of the deposited data

How the results depend on the processing

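The count of called genes of the set, 1 (Acan), became 0 with no filter, with eBayes without trend, with sex as a covariate and with muscle markers as a covariate, and ran from 0 to 2 when 1 library was left out. The count of all called genes, 39, was 18 with no filter, 19 without trend, 71 with library weights, 10 with sex and 4 with muscle markers as a covariate, and 15 to 44 when 1 library was left out. Leaving out a library or adding a covariate also takes away residual degrees of freedom. Pseudocounts of 0.1 and 0.5, a filter at 5 FPKM, scaling by quantiles, by upper quartile or by median ratio, and robust eBayes kept 1 gene of the set called. Directions of Acan, Hapln1, Vcan and Prg4 held in every alternative, and no lectican share turned round.

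Small changes turned sign. Ncan minus Hapln4 was -0.076 with a pseudocount of 0.1 and -0.013 with 0.5, and ran from -0.17 to 0.14 when 1 library was left out. Without 1 library, Ncan ran from -0.056 to 0.16, Hapln3 from -0.21 to 0.034, Chad from -0.090 to 0.083, Hyal2 from -0.013 (also -0.0045) to 0.091 and Tnc from -0.034 to 0.11, with Chad at -0.048 without control replicate 2. Chad was -0.045 with library weights and -0.11 with sex as a covariate. With muscle markers as a covariate Cd44 was -0.11, Pth1r -0.024, Hyal2 -0.11, Fbn1 -0.19, Fbln2 -0.19 and Tnc -0.099. The cause was not tested. Genes under 1 FPKM are limited by depth, most in mutant replicate 3. No paired analysis was possible because the labels do not pair mutant with control libraries and give no replicate numbers.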
